A study of Homo sapiens with 9 samples.

Results

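CD274, PDCD1LG2, CD80 and CD276 are 4 genes of the B7 family of immune ligands, taken by symbol from 14884 named genes measured on arrays. They were picked with their values on these arrays already known, so their levels and differences are given as a description and carry no p-value. Each had exactly 1 row in the value table, so no choice between rows was needed. The arrays hold RNA of MDA-MB-231, a human triple-negative breast cancer line grown in DMEM with serum. The control group was 3 arrays of cells with no agent at time 0. The JQ1 groups were 3 arrays of cells given 500 nM JQ1 for 12 h and 3 given the same dose for 24 h; JQ1 is a small molecule that displaces the BET bromodomain proteins from acetylated chromatin. The labels name no solvent for the controls and no control taken at 12 h or 24 h, so what solvent or culture time did cannot be told apart from what JQ1 did. Whether replicates were separate cultures is not said either, so p-values reflect only how far these samples spread, and that spread may be technical.

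B7 ligands sit on the surface of antigen-presenting cells and of many tumour cells and meet receptors on T cells. PD-L1, encoded by CD274, and PD-L2, encoded by PDCD1LG2, bind PD-1 and dampen T cell activity; CD80 binds the activating receptor CD28, the inhibitory receptor CTLA4 and PD-L1 itself, and CD276 encodes B7-H3, a ligand common on carcinomas. CD274 is a textbook target of interferon gamma, which acts through its receptor, the JAK kinases and the transcription factor IRF1.

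Control 3 stood apart from controls 1 and 2. Across all rows of the table control 3 correlated with them at 0.9832 and 0.9828, against 0.9948 between those 2, so the differences of the ligands and the counts of calls are also given without it, as are listed genes named here whose sign turned on its removal. On the same rows control 3 was more like some treated arrays than like either other control. That held for JQ1 12 h replicates 2 and 3 (0.9888 and 0.9866) and JQ1 24 h replicate 2 (0.9856). It did not hold for JQ1 12 h replicate 1 (0.9828) or JQ1 24 h replicates 1 and 3 (0.982 and 0.9814). The reason was not tested. Of the fixed markers of the line, VIM, CD44, MSN and AXL lay above the array median (4.92 to 4.96) on all 9 arrays. PGR lay below that median on all 9. ESR1 ranged from 4.81 to 5.17 and EPCAM, an epithelial gene listed as low in this line, from 6.07 to 6.49, above the median; ERBB2 and CDH1 were not analysed here. Of 9 leukocyte markers 4 were measured: CD14, CD1C and LYZ lay below the array median on all 9 arrays and NKG7 ranged from 5.66 to 6.01. Their summed log2 value was 17.4 to 17.8 in the controls, 17.8 to 18.1 at 12 h and 17.6 to 18.3 at 24 h, and limma called 0 of the 4 at either time. Of the line's own 7 measured markers limma called 1, EPCAM, which fell by 0.28 at 12 h (SE 0.07, adjusted p = 0.048, lost on removal of each array other than control 3, up to 0.17) and differed by −0.26 at 24 h (0.052). The other leukocyte markers were not analysed here. In bulk RNA, fewer cells carrying a transcript and less of it per cell cannot be told apart.

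The start of CD274 is shown because interferon and BET proteins both act at promoters. The window holds 250 bases before the RefSeq start site and 50 after it, on the plus strand of GRCh38.p14 at chr9:5450292-5450591, written 5′ to 3′, with motif matches in capitals.

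CD274: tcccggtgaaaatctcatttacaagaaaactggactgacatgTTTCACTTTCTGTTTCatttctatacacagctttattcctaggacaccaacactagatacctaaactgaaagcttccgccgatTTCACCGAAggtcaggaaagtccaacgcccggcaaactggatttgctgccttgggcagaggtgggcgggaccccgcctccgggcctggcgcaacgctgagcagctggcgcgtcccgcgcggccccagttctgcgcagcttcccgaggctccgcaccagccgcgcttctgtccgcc

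The first run of capitals holds 2 overlapping matches to the core of the interferon-stimulated response element bound by IRF factors, searched as a pair of GAAA with any 2 bases between them, both on the reverse strand and starting 208 and 202 bases before the start site. The second is 1 match to TTCNNNGAA, the gamma-activated site of STAT dimers, starting 125 bases before it. Over 35116 RefSeq promoter windows of this length, 3.57% held the first motif and 7.66% the second on either strand. The AP-1 motif TGANTCA, on both strands as for the others, was found in 7.71% of windows. An NF-kB motif, in which GGG stands 2 free bases ahead of the letters TTTCC, was found in 1.91%. The E-box CACGTG was found in 7.26% of windows. The TATA box, searched as TATAAA, was found in 11.5%. The CD274 window held no match to these 4, and its 2 matches to the IRF motif share bases. The CD80 window and both CD276 windows held no match to any of the 6. GC content was 57.3% for CD274, 54% for CD80 and 80.3% and 76% for the CD276 windows, against a median of 58.7% over all windows. PDCD1LG2 had no entry in the promoter table. A match of letters is a description of the sequence and does not show a bound site.

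CD274 stood at 8.94, 8.92 and 8.09 (log2 array values) in controls 1, 2 and 3. It stood at 6.58, 7.05 and 7.11 after 12 h of JQ1 and at 6.71, 6.52 and 6.62 after 24 h. All 6 treated arrays lay below all 3 controls, and control 3 was the lowest control. The group means were 8.65 ± 0.48, 6.91 ± 0.29 and 6.62 ± 0.10 (SD, n = 3 each). Against control the log2 difference was −1.74 (SE 0.23) at 12 h, a 3.33-fold lower value, and −2.03 (SE 0.23) at 24 h, 4.09-fold lower. Of the 14884 genes, 38 had a lower difference at 12 h and 29 at 24 h. Without control 3 the differences were −2.02 (SE 0.15) and −2.31 (SE 0.15). The order of the levels was control, 12 h and 24 h, but the 2 treated groups overlapped. Their means differed by −0.30 (SE 0.23, 24 h minus 12 h). That SE pools the spread of all 3 groups, and without control 3 it was 0.13.

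PDCD1LG2 showed a decline of similar size. Its controls read 7.04, 6.68 and 5.97, with control 3 again the lowest. The 12 h arrays read 4.59, 4.67 and 4.66 and the 24 h arrays 4.91, 4.73 and 4.82. Every treated array lay below every control, with a gap of 1.30 log2 between the groups at 12 h and 1.05 at 24 h. The means were 6.56 ± 0.55, 4.64 ± 0.04 and 4.82 ± 0.09 (SD, n = 3 each). The log2 difference from control was −1.92 (SE 0.22, 3.79-fold lower) at 12 h and −1.74 (SE 0.22, 3.35-fold lower) at 24 h. It was −2.22 (SE 0.11) and −2.04 (SE 0.11) without control 3. Here the order was control, 24 h and 12 h: the 24 h arrays all lay above the 12 h arrays by at least 0.07. The means differed by 0.18 (SE 0.22, and 0.10 without control 3). Among all genes, 5.76% had 24 h arrays wholly above the 12 h arrays. The treated arrays all read below the array median, where a value may sit near background; no detection calls were used here.

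CD80 and CD276 showed no decline of that kind. CD80, a ligand mostly of antigen-presenting cells, read 3.66, 3.64 and 3.61 in the controls, 3.66, 3.67 and 3.66 at 12 h and 3.80, 3.63 and 3.80 at 24 h. All of its values lay below the array median and spanned 0.18 log2, and its groups overlapped in every comparison, so a change in a transcript this dim may not be measurable. Its differences from control were 0.02 (SE 0.07) and 0.10 (SE 0.07), and 0.01 and 0.09 (SE 0.08 each) without control 3.

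CD276 read 7.93, 7.78 and 7.58 in the controls, 7.56, 7.11 and 7.54 at 12 h and 7.70, 7.71 and 7.51 at 24 h. The 12 h arrays lay just below the controls, by a gap of 0.03, and the 24 h arrays overlapped them. Its differences from control were −0.36 (SE 0.14, 1.28-fold lower) at 12 h and −0.12 (SE 0.14) at 24 h, and −0.45 (SE 0.14) and −0.21 (SE 0.14) without control 3. Leaving out single arrays put the 12 h difference between −0.45 and −0.22.

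Across the 4 genes, 3 lay wholly below the controls at 12 h and 2 at 24 h. Among all genes tested, 10.9% did so at 12 h and 12.8% at 24 h; since the genes were picked on this contrast, nothing is read from the counts. The median difference of the 4 was −1.05 at 12 h and −0.93 at 24 h, against 0.01 for all genes at both times. Both comparisons use the same 3 controls. Control 3 lay below the mean of controls 1 and 2 by 0.84 for CD274, 0.89 for PDCD1LG2, 0.03 for CD80 and 0.27 for CD276, so that for the 2 PD-1 ligands it stood between those controls and the treated arrays.

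**Figure D1:**
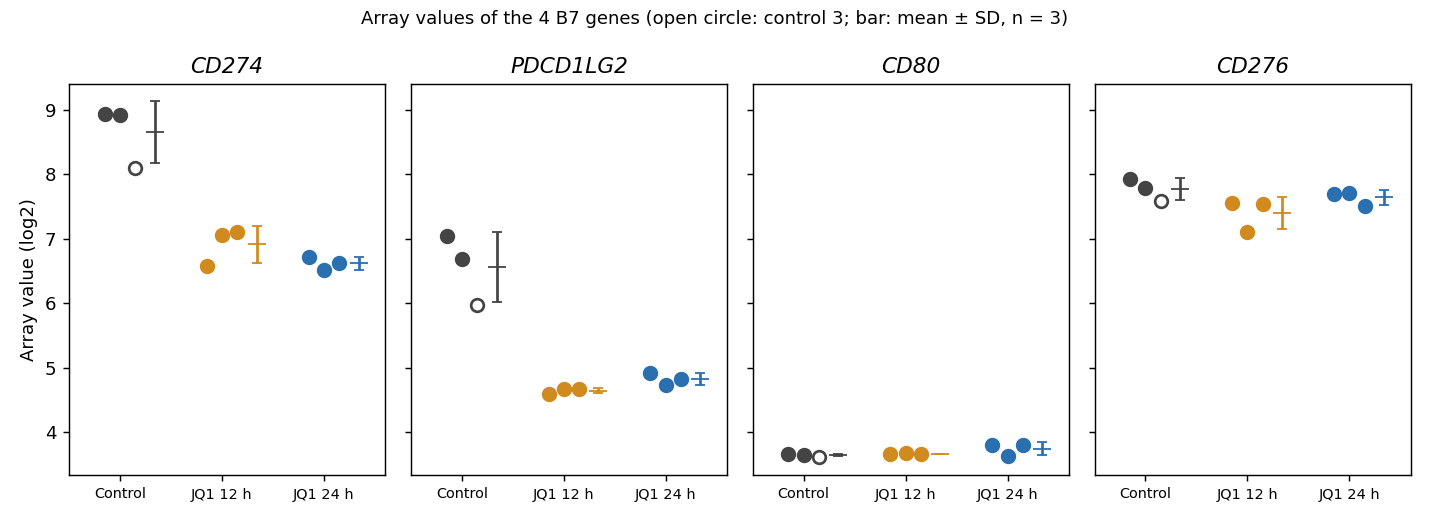
Log2 array value (y) of CD274, PDCD1LG2, CD80 and CD276 in the control, JQ1 12 h and JQ1 24 h groups; each circle is 1 array, the open circle is control 3 and bars are mean ± SD over 3 arrays. CD274 and PDCD1LG2 sit below all controls on all 6 treated arrays, while CD80 stays between 3.61 and 3.80 and CD276 between 7.11 and 7.93.

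CD274 and PDCD1LG2 lie side by side on 9p24, whereas CD80 is on chromosome 3 and CD276 on chromosome 15. Of 15 other listed genes of 9p24, 12 were measured, and PLGRKT, next to CD274 on its other side, was not analysed here. Leaving out the ligands themselves, limma called none of the 5 nearest measured neighbours of either ligand at an adjusted p under 0.05. Among all genes tested it called 7.93% at 12 h and 11.5% at 24 h. RIC1, which follows PDCD1LG2 and encodes a Golgi trafficking factor, read 7.18, 7.39 and 7.21 in the controls and lay between 7.44 and 7.63 on the treated arrays. Its differences were 0.27 at 12 h (SE 0.08, limma adjusted p = 0.094) and 0.29 at 24 h (SE 0.08, adjusted p = 0.056), opposite in sign to those of the ligands. JAK2, a kinase of the interferon receptors on the same arm, differed by 0.02 (adjusted p = 0.96) and −0.01 (0.98, SE 0.12 at both times). Over the 12 genes, RCL1, which acts in ribosomal RNA maturation, was the only one called, and it fell by 0.40 at 12 h and by 0.38 at 24 h on the log2 scale (SE 0.08, adjusted p = 0.015 each). RCL1 lost the call at 12 h without control 2 (adjusted p = 0.058) and at 24 h without control 2 or JQ1 24 h replicate 1 or 3 (up to 0.063). The medians of the 12 were −0.01 and −0.02, and 3 of them had an unadjusted p under 0.05 at each time; without control 3 RANBP6 was called up as well at both.

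**Figure D2:**
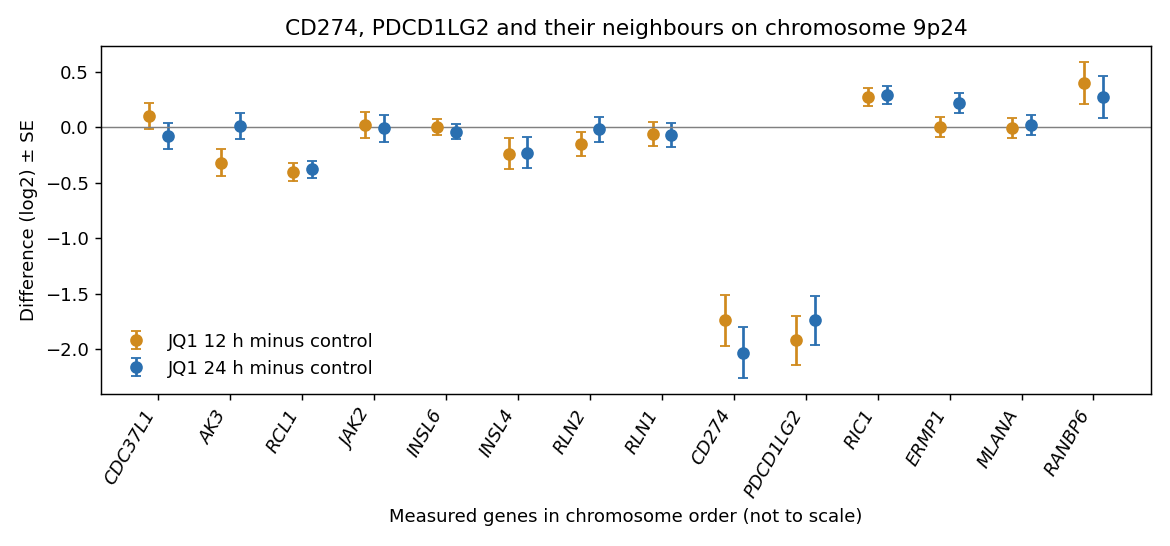
Log2 difference from control ± SE (y) at 12 h (orange) and 24 h (blue) for the measured genes of 9p24 in chromosome order (x, not to scale). CD274 and PDCD1LG2, next to each other, lie between −1.74 and −2.03, and the other 12 genes between −0.40 and 0.40.

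Of the 6 measured neighbours of CD80, TMEM39A fell by 0.42 at 12 h (limma adjusted p = 0.045, gone when any single array other than control 3 was removed, up to 0.15) and by 0.55 at 24 h (0.012, and 0.056 without JQ1 24 h replicate 3). Of the 6 of CD276, 2 rose and 1 fell at both times, beside 7.93% of all genes called at 12 h and 11.5% at 24 h. Nothing is read from counts this small. LOXL1, an enzyme that cross-links elastin, rose by 0.38 at 12 h (adjusted p = 0.018) and 0.55 at 24 h (0.0025). NPTN, which encodes the adhesion protein neuroplastin, rose by 0.31 (0.026) and 0.27 (0.035). The antisense transcript LOXL1-AS1 fell by 0.59 (0.041) and 0.62 (0.026). The 12 h call of LOXL1 was lost without controls 1 or 2 or any 12 h array (up to 0.066). That of NPTN was lost without controls 1 or 2 or JQ1 12 h replicates 2 or 3 (up to 0.094), and its 24 h call without any array other than control 3 and JQ1 12 h replicate 1 (up to 0.12). LOXL1-AS1 lost its 12 h call without any array other than control 3 and JQ1 24 h replicate 2 (up to 0.14), and its 24 h call without controls 1 or 2 or JQ1 24 h replicates 2 or 3 (up to 0.089).

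The other genes around these ligands come from lists chosen with earlier results of these arrays known, and were tested with limma over all genes. Of 136 listed genes 80 were measured. At 12 h 5 rose and 6 fell, 13.8% of the 80, against 7.93% called among all genes; at 24 h 5 rose and 7 fell, 15% against 11.5%. Without control 3 the counts were 11 and 15 at 12 h (32.5% against 20.1%) and 6 and 15 at 24 h (26.2% against 20.9%). These shares among all genes also stand beside the count of each list below. Its removal lost none of the calls among the 80 and added 15 at 12 h and 9 at 24 h. The sign of the difference turned for 9 genes at 12 h and 14 at 24 h, none of them called with all arrays. Between 12 h and 24 h limma called 0 of the 80 (4 at an unadjusted p under 0.05), against 0.00672% of all genes.

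Among the other B7 ligands, 0 of 6 passed the limma test at either time, with 0 at an unadjusted p under 0.05 at 12 h and 1 at 24 h. Their median differences were −0.05 and 0.08. CD86, the partner of CD80 as a CD28 and CTLA4 ligand, differed by −0.08 (SE 0.11) at 12 h and 0.10 (SE 0.11) at 24 h. The differences were −0.13 and −0.05 for ICOSLG, the ICOS ligand. They were −0.03 and 0.09 for VTCN1 (B7-H4), 0.08 and 0.19 without control 3, and 0.03 and 0.07 for HHLA2. The furthest from 0 was VSIR, the gene of the checkpoint protein VISTA, at 0.55 at 24 h (SE 0.17, adjusted p = 0.072); it is named after its values were seen. Of the receptors on lymphocytes, 6 of 7 were measured and limma called 0, with 0 at an unadjusted p under 0.05 and differences between −0.11 and 0.08. PDCD1, which encodes PD-1, was not analysed here. Limma called 0 of the 3 measured butyrophilins, again with 0 at an unadjusted p under 0.05, and their medians were 0.13 and −0.02.

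Of the other inhibitory ligands, 10 of 18 were measured. At 12 h 0 were called (2 at an unadjusted p under 0.05), and at 24 h 1 rose and 1 fell. PVR, the poliovirus receptor and a ligand of the checkpoint receptor TIGIT, read 9.94, 10.06 and 9.01 in the controls, 8.95, 8.87 and 8.87 at 12 h and 8.78, 8.58 and 8.65 at 24 h. All treated arrays lay below all controls, and control 3 was again nearest to them. PVR fell 2.00-fold at 24 h (SE 0.23 on the log2 scale, adjusted p = 0.024) and lost that call without control 1, control 2 or any 24 h array (up to 0.088); at 12 h it differed by −0.78 (adjusted p = 0.079). CD47, the signal that restrains phagocytes, moved the other way, from 8.39, 8.42 and 8.69 in the controls to 9.0, 9.12 and 9.01 at 24 h. It rose by 0.54 (SE 0.10, adjusted p = 0.011), a call kept whichever array was left out, and differed by 0.34 at 12 h (0.084). NECTIN2, another TIGIT-axis ligand, differed by 0.11 and 0.13 (adjusted p = 0.79 and 0.73), and by −0.07 and −0.05 without control 3. Without control 3 PVR and CD47 were called at both times.

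In the interferon and JAK-STAT list, 2 of 11 measured genes rose and 1 fell at 12 h, and 1 rose and 1 fell at 24 h, with medians of 0.03 and 0.14. IFNGR2, the signalling chain of the interferon gamma receptor, read 7.57, 7.54 and 6.91 in the controls, 6.20, 6.42 and 6.50 at 12 h and 6.50, 6.31 and 6.41 at 24 h. The groups did not overlap at either time. It fell 1.96-fold at 12 h (log2 −0.97, SE 0.17, adjusted p = 0.0099) and 1.91-fold at 24 h (−0.94, SE 0.17, 0.0088), and both calls held whichever array was left out. The ligand-binding chain IFNGR1 did not pass (0.06 and 0.14, adjusted p = 0.90 and 0.65), and its sign turned without control 3 (−0.13 and −0.05).

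SOCS3, a feedback inhibitor of JAK signalling, read 8.01, 7.91 and 7.86 in the controls, 8.69, 8.86 and 8.63 at 12 h and 9.13, 9.04 and 9.04 at 24 h. It rose 1.74-fold (log2 0.80, SE 0.08, adjusted p = 0.0014) and 2.21-fold (1.14, SE 0.08, 0.00013), in all 6 treated arrays. Both calls held whichever array was left out. SOCS1, an inhibitor of the same family, rose by 0.55 at 12 h (adjusted p = 0.039), lost without any array other than controls 2 and 3 (up to 0.12), and differed by 0.38 at 24 h (0.10).

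The factors between receptor and promoter gave no call. IRF1, the interferon-induced activator of CD274, differed by 0.03 at 12 h and 0.09 at 24 h (adjusted p = 0.94 and 0.74), and its values of 6.61, 6.58 and 6.12 in the controls and 6.44 to 6.64 on the treated arrays overlapped. JAK1, the kinase bound to IFNGR1, differed by 0.20 and 0.21 (adjusted p = 0.64 and 0.58) and STAT3 by 0.25 and 0.16 (0.26 and 0.47). Without control 3 the sign turned for IRF1 (−0.13 and −0.07) and JAK1 (−0.07 and −0.06), while STAT3 stood at 0.13 and 0.04; none of these was called. In control 3 the median gene of this list lay 0.47 below controls 1 and 2; without it the list's medians were −0.07 and −0.05.

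Of the transcription factors linked to CD274, 16 of 20 were measured; 0 rose and 2 fell at 12 h, and 0 rose and 3 fell at 24 h. NFKB1, the p105 and p50 subunit of NF-kB, read 8.94, 8.94 and 8.84 in the controls, 8.36, 8.25 and 8.42 at 12 h and 8.30, 8.08 and 8.28 at 24 h, with control 3 close to the other controls. It fell 1.48-fold (log2 −0.56, SE 0.09, adjusted p = 0.0056) and 1.61-fold (−0.69, SE 0.09, 0.0016), whichever array was left out. RELA, its usual partner, differed by −0.22 and −0.26 (adjusted p = 0.45 and 0.30). MYC fell by 0.96 (SE 0.19, adjusted p = 0.019) and 0.76 (SE 0.19, 0.036) on the log2 scale. Its 12 h call was lost without control 1, control 2 or any 12 h array (up to 0.074) and its 24 h call on removal of each array other than control 3 (up to 0.12). YAP1, a coactivator of the Hippo pathway, fell by 0.80 at 24 h (SE 0.18, adjusted p = 0.020), lost without control 1, control 2 or JQ1 24 h replicate 1 or 3 (up to 0.086). Control 3 lay 0.68 below controls 1 and 2 at the median of this list. Without it 8 of the 16 fell at 12 h and 7 at 24 h, and 0 rose. Among all genes 20.1% and 20.9% were then called, in either direction.

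Among genes that handle the PD-L1 protein, 12 of 18 were measured, and 2 rose and 0 fell at both times. GSK3B, a kinase that marks PD-L1 for degradation, read 9.22, 9.07 and 9.68 in the controls and 10.21 to 10.36 on the 6 treated arrays. It rose 1.94-fold at 12 h (log2 0.95, SE 0.14, adjusted p = 0.0047) and 1.95-fold at 24 h (0.97, SE 0.14, 0.0031), calls kept whichever array was left out. ADAM10, a protease that can shed PD-L1 from the cell surface, rose by 0.40 (SE 0.10, adjusted p = 0.040) and 0.44 (SE 0.10, 0.021); the first call was lost on removal of each array other than control 3 (up to 0.14), the second without control 1, control 2 or JQ1 24 h replicate 1 or 3 (up to 0.087). CMTM6, which protects PD-L1 from lysosomal breakdown, differed by 0.36 (adjusted p = 0.080) and 0.17 (0.39), and its relative CMTM4 by 0.09 and −0.13 (0.88 and 0.79). Without control 3 the list had 6 up and 1 down at 12 h, CMTM6 (0.45) and CMTM4 (0.37) among the 6, and 2 up and 1 down at 24 h, where CMTM4 turned to 0.15 and was not called.

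Class I antigen presentation, which shows peptides to the same T cells, had 5 of 16 listed genes measured; 1 rose and 2 fell at 12 h, and 1 rose and 1 fell at 24 h. CALR, a chaperone of class I loading, rose by 0.70 (SE 0.11, adjusted p = 0.0062) and 0.65 (SE 0.11, 0.0067), whichever array was left out. ERAP2, a peptide-trimming enzyme of the endoplasmic reticulum, fell by 0.49 (adjusted p = 0.040) and 0.77 (0.0048). Its 12 h call was lost on removal of each array other than control 3 and JQ1 12 h replicate 3 (up to 0.10). ERAP1, the partner enzyme, fell by 0.75 at 12 h (adjusted p = 0.047, lost on removal of each array other than control 3, up to 0.16) and differed by −0.66 at 24 h (0.057). Without control 3, 1 rose and 3 fell at both times. The 9 listed class II genes were not analysed here.

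**Figure D3:**
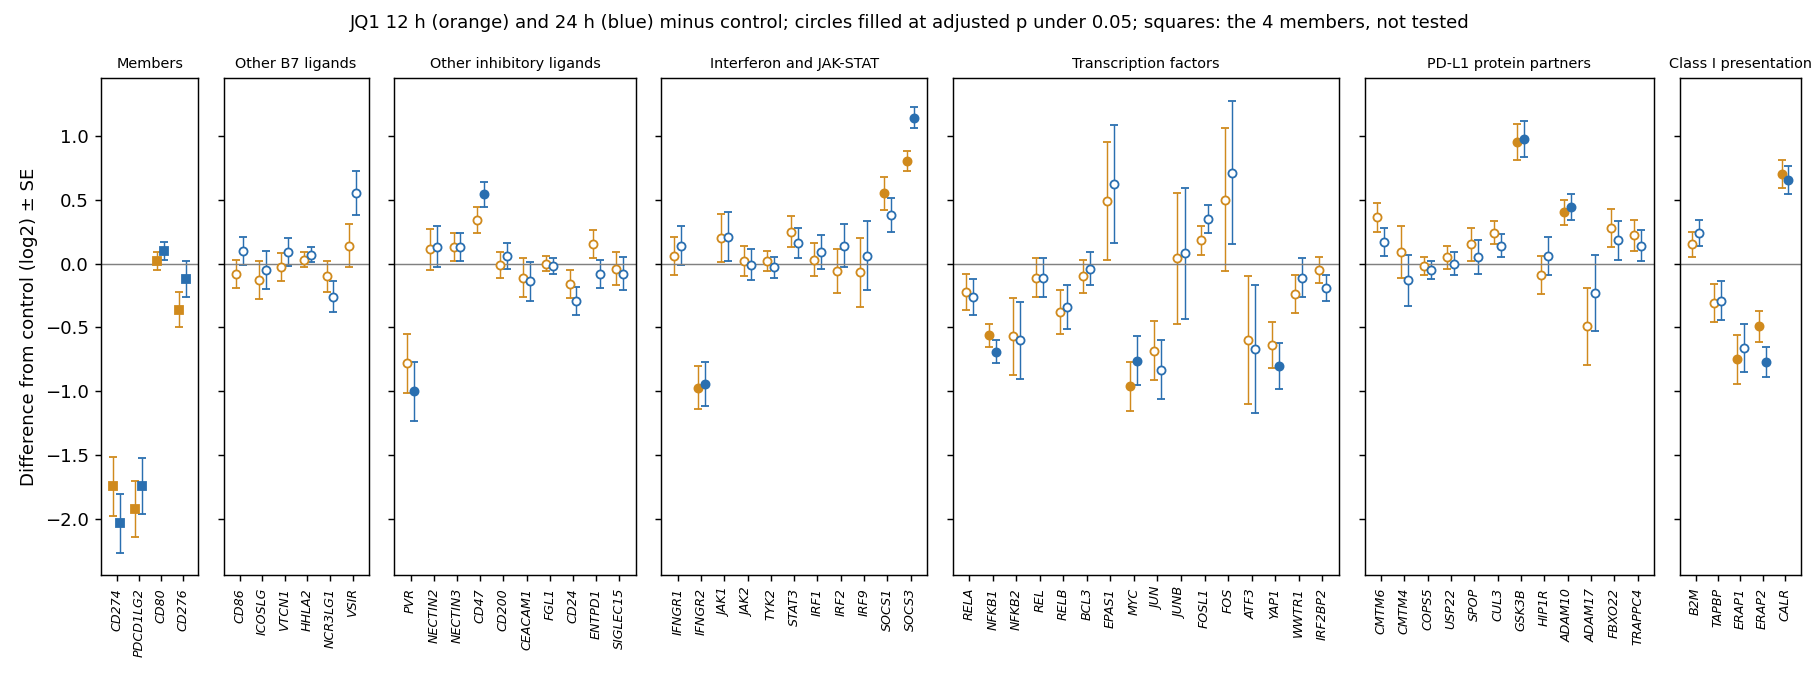
Log2 difference from control ± SE (y) at 12 h (orange) and 24 h (blue) for the 4 members (squares, not tested) and the measured genes of 6 lists (circles, filled at an adjusted p under 0.05). CD274 and PDCD1LG2 lie lowest, IFNGR2 is called at −0.97 and −0.94, and SOCS3 and GSK3B are called above 0 at both times.

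The genes whose array profile was most like that of CD274 were found by centring each gene on its own mean and taking the root mean square of its differences from CD274 over the arrays. Over 9 arrays the nearest of 14883 genes was MOCOS, the sulfurase of the molybdenum cofactor, at 0.16 log2, against 0.95 for the median gene. It was followed by FBXL13 and TMEM71 (0.17 each), TFPI, an inhibitor of tissue factor, and MPZL3 (0.19 each), ACSL5, a fatty acid activating enzyme, and KLF11 (0.20 each), MYPN and GALNT3 (0.21 each) and CD22 (0.23). PDCD1LG2 ranked 12th at 0.24. The differences of the 10 from control ran from −1.57 (MOCOS and GALNT3) to −2.11 (CD22) at 12 h. They lie on several chromosomes, and none is on chromosome 9. Over the 8 arrays without control 3 the nearest were KDM7A (0.14), BMP2 and CTH (0.16 each), FBXL13, MOCOS, TMEM71, ZFP69B, FERMT3, MKX and MYPN, so 4 genes were in both lists of 10, and PDCD1LG2 ranked 40th at 0.26. On control 3, left out there, KDM7A read 4.92 and CTH 6.23, below all their treated arrays (lowest 5.79 and 6.59). The other genes of that list read above all their treated arrays on control 3. The genes of both lists were picked for their likeness to CD274 and were not tested.

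**Figure D4:**
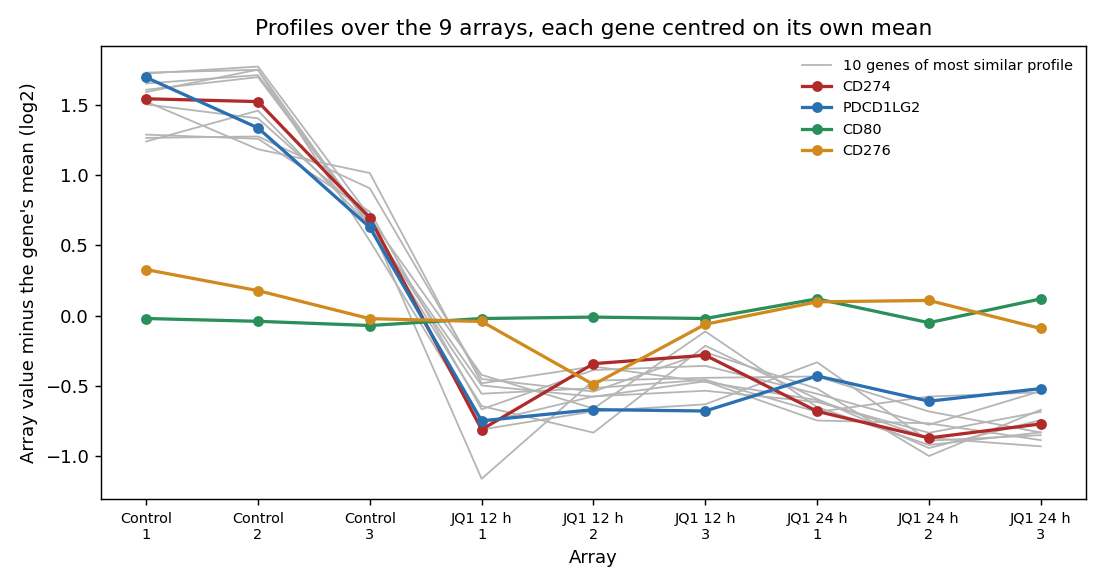
Array value minus the gene's own mean (y, log2) on each of the 9 arrays (x) for the 4 members and, in grey, the 10 genes with the profile most like CD274 over the 9 arrays; lines only join the points of a gene, since replicates have no order. CD274, PDCD1LG2 and the grey genes are highest in controls 1 and 2, intermediate in control 3 and below their mean on the treated arrays, while CD80 and CD276 stay closer to 0.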

How the data were processed

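The authors deposited 1 table of log2 values, 53617 rows by 9 arrays (Affymetrix Human Gene 2.0 ST, 1 array per sample). The unit was inferred from the deposited values, which ran from 2.01 to 13.88. The submitters' processing notes name Transcriptome Analysis Console; the version, background correction and normalization are not given in the sources used here. Array medians this close usually follow normalization between arrays, which removes a change in total RNA, so differences are relative to the other genes. With no detection calls, depth cannot be stated, and 3 arrays per group limit the precision.

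The platform's gene table gave 16098 rows exactly 1 symbol, and the row of highest mean stood for a gene. A model with 1 mean per group over all 9 arrays was fitted with limma 3.58.1 (R 4.3.3, eBayes), and p-values were adjusted by Benjamini-Hochberg over 14884 genes per comparison, two-sided, called under 0.05. The fit was tested on simulated data. The members and lists were chosen with earlier results of these data known, and no list was tested as a set. Named were the members, the listed genes called against control, a fixed set given whether called or not, the 3 measured genes on either side of each member, and the 10 profiles nearest to CD274. Promoters came from RefSeq windows of GRCh38.p14, and 3 of the 4 members had one; no build is given here for the array. Alternatives were other scalings, rows, filters, moderation and fits, a replicate block and leaving out each array.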

Additional observations from a re-analysis of the deposited data

Results flagged for a closer look

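AOX1, an aldehyde oxidase gene outside the B7 genes and their lists, was the only gene of 14884 whose difference from control was itself different at 24 h and 12 h (limma, 24 h minus 12 h −1.28, SE 0.09, adjusted p = 0.0024). It read 9.17, 9.03 and 9.33 in the controls, 7.91, 7.94 and 7.90 at 12 h and 6.75, 6.56 and 6.61 at 24 h.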

How the results depend on the processing

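The differences of CD274 stayed between −2.02 and −1.57 at 12 h and between −2.31 and −1.89 at 24 h under every alternative run, and those of PDCD1LG2 between −2.22 and −1.68 and between −2.04 and −1.50; each extreme came from leaving out an array. CD80 at 12 h stood at 0.01 under quantile normalization and ranged from 0.01 to 0.03 with an array left out, all within the SE of 0.07, and had no value once dim genes were left out. Counts of calls moved more. Leaving out 1 array put all genes called between 543 and 2986 at 12 h, between 786 and 3111 at 24 h and between 1 and 22 from 12 h to 24 h, and the listed genes called between 6 and 26 and between 7 and 21; the highest came without control 3. Adjusting over all rows of the table, which tests more rows, left 696 and 1121 genes and 7 listed genes at 12 h. Fitting only the groups compared, which uses fewer arrays, left 577 and 994 and 4 listed genes at 12 h. The labels do not say what a replicate number marks, so the numbers were not taken to pair samples. Deviations of same-numbered arrays correlated at −0.32 to 0.22 over 9 pairs, 2 of them above 0.1. Pairs of different number ran from −0.27 to 0.29, highest for control 3 with replicate 2 of JQ1 12 h (0.29) and of JQ1 24 h (0.28). Whether some arrays share a factor across groups was not tested, and a block on the replicate number would not take it up. With a replicate block 967 and 1478 genes and 10 and 13 listed genes were called. For 45 genes (the listed genes called or fixed by name, and the ligands' neighbours) in 3 comparisons, 133 of 2265 values over 17 alternatives lost their call, 11 gained one and 0 turned sign after a call; leaving out control 3 lost 0 and gave 6 of the 11. Over all 80 listed genes that step alone added 15 calls at 12 h and 9 at 24 h.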
